A study of Mus musculus with 4 samples.

Results

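The cells described here, called members below, are stromal cells of the mouse digit that carry transcripts of Prss35, Spock3 and Crabp1 and outrank, in those transcripts, the marker sums of 6 other stromal kinds. They number 636 of 11674 cells that passed a stromal gate and of 39266 cells in all. A cell entered the gate with at least 500 genes, at least 1000 unique molecular identifiers (UMIs, each standing for 1 captured transcript), at most 10% mitochondrial UMIs, no UMI of Ptprc (CD45, on all immune cells) or Cdh5 (an endothelial cadherin), at most 2 UMIs of Rgs5 (a pericyte gene) and at least 2 UMIs of Pdgfra and Dcn together (a fibroblast receptor and the matrix proteoglycan decorin). A gated cell was a member when its UMIs of Prss35, Spock3 and Crabp1 summed to 3 or more and exceeded each of 6 other sums. Those sums were of C4b, Gdf10 and Cyp2f2, of Pi16, Dpp4 and Pcolce2, of Chad, Omd and Scube1, of the tendon genes Scx, Tnmd and Thbs4, of the bone genes Ibsp, Sp7 and Alpl, and of the joint genes Hapln1, Prg4 and Inhba. The members were thus chosen by measured UMIs of these 21 genes and of the 5 gate genes, and the levels of those genes are given as a description with no test. Genes that go with the chosen or the excluded genes, such as the bone proteins osteocalcin and osteopontin with the bone sum, go with the choice as well.

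The mice were wild-type FVB/NJ animals aged 8 weeks, with no transgene, and both sexes were pooled according to the labels. One library came from unamputated digits and 1 each from digits 12, 17 and 28 days post-amputation (dpa) through the middle phalanx (P2), a level at which a mouse digit does not regrow and instead scars. Tissue was dissected by hand and dissociated with trypsin and collagenase I, and live cells were sorted by exclusion of propidium iodide before droplet capture with 10x 3′ v3 chemistry, so a library holds only cells that survived digestion. The number of animals behind a library is not given in the sources used here, and the whole digit piece is a mixture of skin, nail-associated, tendon and bone tissue. With 1 library per condition, conditions were compared without a test.

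Crabp1 is a cytosolic protein that binds retinoic acid, and in skin it marks fibroblasts of the upper dermis and the dermal papilla, the mesenchymal cluster that instructs a hair follicle. Spock3 (testican-3) is a secreted heparan sulfate proteoglycan of the SPARC family, whose members sit in the matrix around cells. Prss35 is a secreted trypsin-like protein whose catalytic serine is replaced, so it is classed as an inactive serine protease. Upper (papillary) dermal fibroblasts are known for Wnt signalling and for the basement membrane above them, while deep (reticular) and adventitial fibroblasts are known for Pi16, Dpp4 and bulk fibrous matrix.

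The 3 genes lie on chromosomes 9 and 8 of GRCm38 (mm10) on the plus strand, Crabp1 at chr9:54764748-54773110, Prss35 at chr9:86743649-86758443 and Spock3 at chr8:62951009-63357103. The 250 bases before each start in RefSeq (GRCm38.p6) are shown because these genes chose the cells; for Spock3, which has 2 listed starts, the more upstream one was taken. The gene spans are those of GENCODE, whose Spock3 start lies upstream of both RefSeq starts, so most of the Spock3 window lies inside the GENCODE span. Capitals mark the GC box, GGGCGG or its complement, and the spans are chr9:54764498-54764747, chr9:86743383-86743632 and chr8:62950982-62951231.
Crabp1: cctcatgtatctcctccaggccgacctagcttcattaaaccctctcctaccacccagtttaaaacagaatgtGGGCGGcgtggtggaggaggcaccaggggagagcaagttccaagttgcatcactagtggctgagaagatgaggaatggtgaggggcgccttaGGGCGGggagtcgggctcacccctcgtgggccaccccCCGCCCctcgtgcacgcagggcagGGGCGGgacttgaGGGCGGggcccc
Prss35: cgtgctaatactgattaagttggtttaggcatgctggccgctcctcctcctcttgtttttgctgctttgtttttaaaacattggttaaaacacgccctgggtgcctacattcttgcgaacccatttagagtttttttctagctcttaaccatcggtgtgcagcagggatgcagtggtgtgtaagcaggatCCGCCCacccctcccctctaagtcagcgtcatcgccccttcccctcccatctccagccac
Spock3: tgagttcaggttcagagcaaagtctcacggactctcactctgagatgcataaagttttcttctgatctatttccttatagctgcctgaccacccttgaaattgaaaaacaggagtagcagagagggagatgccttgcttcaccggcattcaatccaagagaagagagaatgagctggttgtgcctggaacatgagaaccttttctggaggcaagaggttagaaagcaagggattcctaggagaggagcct
The Crabp1 window held 5 GC boxes, which began 178, 86, 49, 25 and 12 bases before the start, and had a GC content of 63.6%. The Prss35 window held 1 GC box, 60 bases before the start on the opposite strand, at a GC content of 50.8%, and the Spock3 window held none at 46.4%. Over the same 250 bases of 32851 listed starts of 27025 genes, a GC box was present in 32.74% and the median GC content was 52.4%. TATAAA (in 12.37% of windows), CTTTGA (the core bound by TCF and LEF factors, 13.83%) and AGGTCA (a nuclear receptor half-site, 14.02%) were searched on both strands and matched in none of the 3 windows. These matches describe letters only.

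The libraries held 8813 to 16045 barcodes and 92313847 to 197140774 UMIs. Members had a median of 23235, 17244, 14618 and 7382 UMIs in the unamputated, 12, 17 and 28 dpa libraries, an order kept for every list of 4 values below, and other gated cells had 20452, 15247, 12329 and 8720. The members' summed UMIs were 4184922, 7033716, 743069 and 228155, and levels are given as CPM, the UMIs of a gene scaled to a total of 1000000 UMIs, a scale without gene length on which genes were not compared with each other. No barcode of a member occurred as a member in a second library. Scrublet, a doublet caller run at a preset rate, marked 30, 21, 10 and 16 members, which is 17.5%, 5.43%, 20.4% and 55.2% of them, against 21.9%, 6.04%, 7.95% and 13.4% of other gated cells. Marked cells were kept in the main values, and counts and calls without them stand beside many of the results. Without them 13 members were left at 28 dpa, so class contrasts without marked doublets also left out the 28 dpa library. Transcripts of 4 Y-linked genes summed to 304, 0.142, 202 and 250 CPM in the members and Xist to 0, 478, 0 and 0 CPM, so the 12 dpa members differ from the others in sex-linked transcripts although the labels name pooled sexes; the part of this in any 12 dpa result was not tested.

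Members made up 7.22% of gated cells in unamputated tissue (171 of 2368, exact 95% binomial interval 6.21 to 8.34), 17.4% at 12 dpa (387 of 2226, 15.8 to 19.0), 1.67% at 17 dpa (49 of 2929, 1.24 to 2.21) and 0.699% at 28 dpa (29 of 4151, 0.468 to 1.00). Intervals here and below cover counting error only. The share was highest at 12 dpa and lowest at 28 dpa, and the 4 intervals did not overlap. Among all passing cells the shares were 1.43%, 5.58%, 0.564% and 0.248%. Because a deeper cell reaches 3 UMIs more easily, each gated cell was also thinned to 3000 UMIs, which gave 2.47%, 6.59%, 1.04% and 0.312% in the same order. The share was computed from the genes that define the cells, and a fall in the number of such cells cannot be told apart from a fall of these 3 transcripts within cells that stay.

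**Figure D1:**
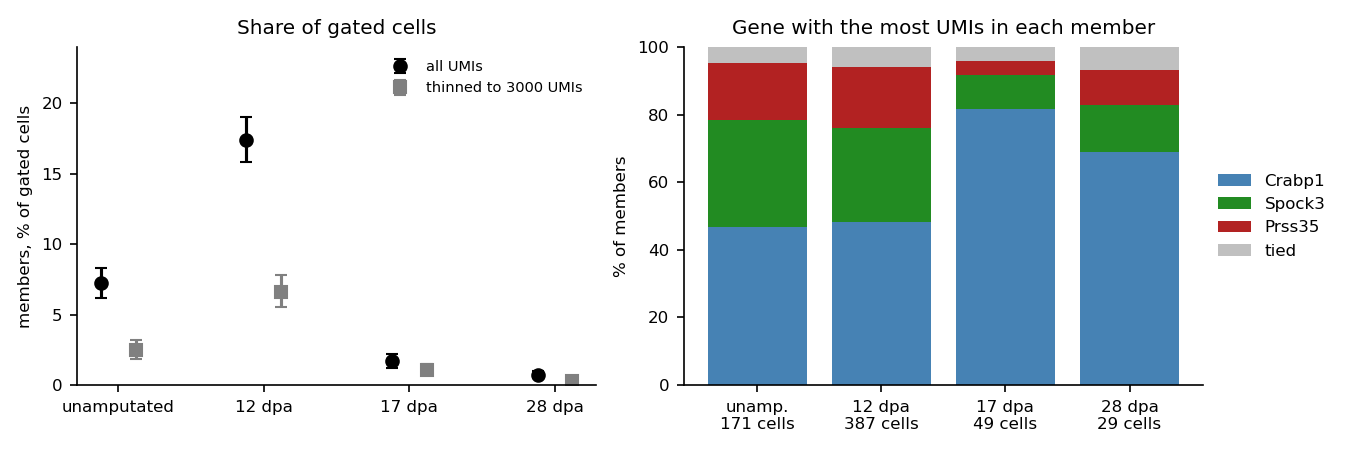
Left, members as a percentage of gated cells in each library, with all UMIs (black) and after thinning to 3000 UMIs per cell (grey), with exact 95% binomial intervals; right, the percentage of members whose highest count among the 3 genes was Crabp1, Spock3 or Prss35, or was tied. The 12 dpa library has the highest share in both versions, and Crabp1-led cells make up 81.6% of the 17 dpa members.

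Crabp1 stood at 366, 416, 962 and 991 CPM in the members, at 23.5, 46.2, 14.1 and 2.91 CPM in other gated cells, and was detected in 76.0%, 80.9%, 93.9% and 82.8% of members. Prss35 stood at 196, 195, 166 and 61.4 CPM and was detected in 56.7%, 59.4%, 46.9% and 20.7% of members. Spock3 stood at 189, 198, 78.1 and 206 CPM and was detected in 62.0%, 64.9%, 34.7% and 27.6%. A sum of 3 UMIs is a higher CPM in a shallow cell than in a deep one, so the rule and the depth of the members help set these levels, and they were not compared between libraries. Between 2.35% and 25.0% of other gated cells had a Crabp1 UMI, against at most 2.11% of immune cells, whose median depth was 7232 to 8960 UMIs.

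Most members did not carry all 3 genes. All 3 were detected in 43, 114, 6 and 2 members, and only 1 of the 3 genes was detected in 30.4%, 24.3%, 36.7% and 75.9%. Counting each member by the gene with most UMIs, Crabp1 led in 80, 187, 40 and 20 members, Spock3 in 54, 107, 5 and 4, and Prss35 in 29, 70, 2 and 3. Crabp1-led cells were 46.8%, 48.3%, 81.6% and 69.0% of the members. Across cells of a library, the correlation of log-scaled levels between Spock3 and Crabp1 was -0.44, -0.28, -0.28 and -0.25, and that between Prss35 and Crabp1 was 0.39, 0.28, 0.36 and -0.47 (171, 387, 49 and 29 cells that share a library). The rule leaves out cells low in all 3 genes, which by itself lowers such correlations, so nothing is read from their sign.

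Near the threshold, 14, 36, 2 and 7 members had a sum of exactly 3, and 10, 26, 4 and 1 gated cells had a sum of 2 that led the other sums. In unamputated tissue, Col7a1, a gene the rule did not use, stood at 155 CPM in the members at a sum of 3, at 72.7 CPM in the cells at 2 and at 937 CPM in members above 20. At 12 dpa the same 3 values were 182, 184 and 660 CPM, so cells just inside and just outside the threshold had nearly the same level. A further 258, 300, 83 and 13 gated cells reached 3 UMIs but did not exceed another sum.

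The fibroblast label was checked against 8 markers, Col1a1, Col1a2, Col3a1, Lum, Pdgfra, Dcn, Mfap5 and Pdgfrb, of which Pdgfra and Dcn were used by the gate. None was at 0, and their summed level was 74514, 70674, 61142 and 15665 CPM in members against 61051, 59313, 61458 and 40674 CPM in other gated cells. The 28 dpa members thus carried the markers at less than the level of their neighbours and far below the members of the other libraries. Keratinocyte markers (8 genes) summed to 476, 559, 144 and 1004 CPM in members, below the 1344, 598, 1421 and 3581 CPM of other gated cells. Macrophage markers (8 genes) summed to 39.9, 88.2, 71.3 and 232 CPM in members against 36.51, 35.55, 118.3 and 333.5 CPM in other gated cells. Endothelial markers (6 genes, with Emcn and Tie1 at 0 in the unamputated and 28 dpa members) summed to 1.20, 7.96, 12.1 and 30.7 CPM against 8.904, 12.15, 7.114 and 20.83 CPM. Schwann and perineurial markers (6 genes) summed to 42.8, 11.9, 12.1 and 197 CPM against 27.54, 14.78, 56.14 and 58.19 CPM. Members thus had the higher sum of each kind in some libraries and the lower in others. Smooth muscle and pericyte markers stayed at 16.2 to 74.5 CPM, and melanocyte markers at 0.995 to 5.38 CPM.

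To find what else these cells express, UMIs were summed over members and over other gated cells of each library and compared with edgeR's quasi-likelihood test, with the library as a block and Benjamini-Hochberg adjustment. The 4 libraries are 4 conditions, so the spread the test uses includes differences between conditions. Of 14910 genes tested, 94 (0.63%) were higher and 106 (0.711%) lower in members at an adjusted p under 0.05. Cadps, Col7a1, Apcdd1 and Entpd1 were among the highest by rank, and Bglap, Bglap2, Spp1 and Comp among the lowest.

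Cadps, which primes secretory vesicles for release, stood at 144, 45.9, 75.4 and 43.8 CPM in members against 1.95, 3.63, 2.66 and 1.33 CPM in other gated cells. The groups did not overlap, and the fitted log2 difference was 4.89 ± 0.43 (SE, adjusted p = 0.00183, edgeR). Col7a1, the chain of the anchoring fibrils that hold the epidermal basement membrane to the dermis, stood at 517, 366, 381 and 26.3 CPM against 43.6, 75.3, 18.6 and 13.7 CPM. It was higher in all 4 libraries (log2 difference 3.01 ± 0.49, adjusted p = 0.0197), with its lowest member value at 28 dpa falling among the values of other cells. Apcdd1, a membrane inhibitor of Wnt signalling, stood at 134, 46.9, 221 and 202 CPM against 22.7, 13.1, 23.9 and 32.4 CPM (2.49 ± 0.23, adjusted p = 0.00217). Entpd1 (CD39), an enzyme that degrades extracellular ATP, stood at 78.6, 56.9, 68.6 and 43.8 CPM against 5.68, 6.24, 6.03 and 9.01 CPM, with a log2 difference of 3.29 ± 0.26. Tmem132c, a transmembrane protein, was at 171, 79.6, 102 and 136 CPM in members and at 8.38 to 9.93 CPM in other gated cells.

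Other genes at the top were Clstn2 (calsyntenin-2, a synaptic cadherin, log2 difference 2.96), Sema3a (a secreted axon guidance cue, 2.69), F13a1 (the A chain of clotting factor XIII, 2.62) and Mmp11 (stromelysin-3, 2.57). Mmp11 stood at 159, 147, 68.6 and 57.0 CPM in members and at 14.5 to 23.4 CPM in other cells. F13a1 was near the background at 12 dpa, with 1.71 CPM, and highest at 28 dpa, with 267 CPM from 5 cells. Also among the highest, the potassium channel genes Kcnd2 (4.81) and Kcnj3 (4.73) and Corin (4.72), a membrane protease that activates natriuretic peptide and a dermal papilla marker, were each carried by few members and are taken up with those cells below.

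**Figure D2:**
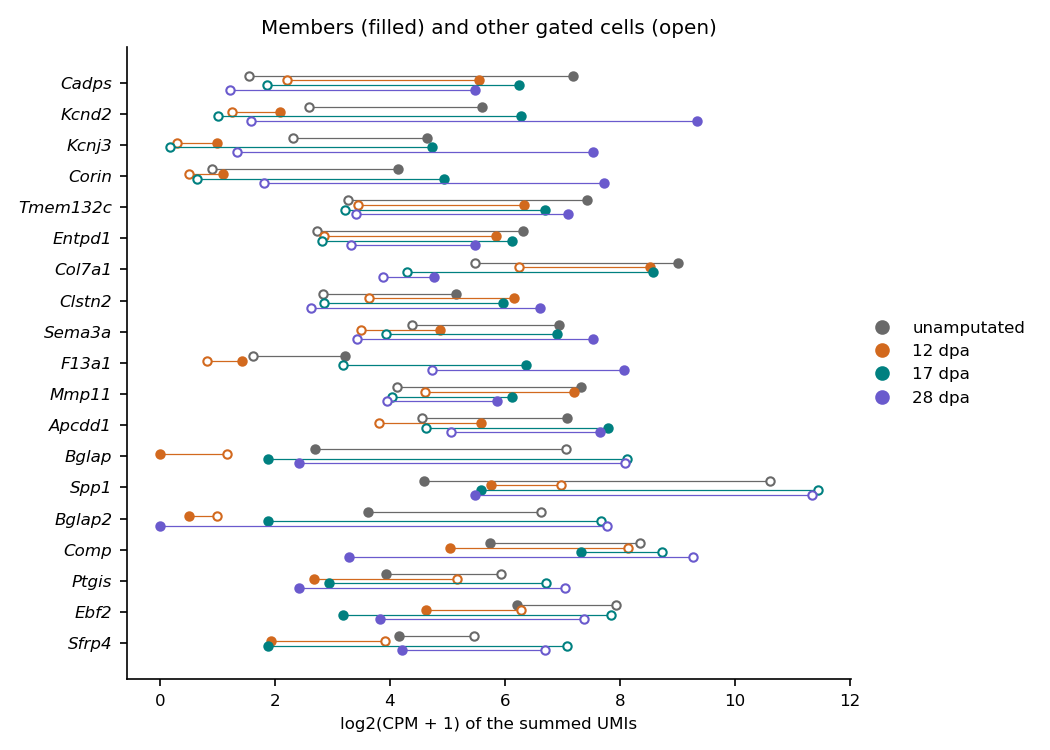
Levels of genes named by rank, as log2(CPM + 1) of the UMIs summed over members (filled) and over other gated cells (open), 1 pair of points per library joined by a line. The 12 upper genes are higher and those beneath them are lower in members in each of the 4 libraries, and the Corin, Kcnd2 and Kcnj3 gaps are narrowest at 12 dpa.

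Bglap, Bglap2, Spp1 and Comp, known from bone, cartilage or tendon, were lower in members. Bglap and Bglap2 (osteocalcin) had log2 differences of -5.20 and -3.87, and Spp1 (osteopontin) was at 23.2, 53.0, 47.1 and 43.8 CPM in members against 1555, 124, 2785 and 2595 CPM in other gated cells. Comp, a cartilage and tendon matrix protein, stood at 52.3, 31.9, 160 and 8.77 CPM against 326, 283, 424 and 619 CPM. These genes go with the bone and tendon sums that a member had to outrank. The 5 osteoblast markers summed to 346.5, 268.6, 137.3 and 35.06 CPM in members against 832.3, 213, 1040 and 737.2 CPM in other gated cells, so at 12 dpa the members had the higher sum. Ptgis (prostacyclin synthase, -2.78), Ebf2 (a transcription factor, -2.46) and Sfrp4 (a secreted Wnt antagonist, -2.38) were also lower in 4 of 4 libraries. Without the 17 dpa library 21 genes were higher and 20 lower, and 12 of the 20 named genes missed the threshold; without the 12 dpa library the counts were 220 and 261, and without the 28 dpa library 152 genes were higher.

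Among lists of genes by role, the papillary dermis and the dermal papilla lists held 4 higher genes each. Of 10 papillary genes, 4 were higher (Apcdd1, Nkd1, Nkd2 and Axin2) and Col13a1 was lower, with a list median of 1.28 on the log2 scale against -0.04 over all genes tested. Nkd1 and Nkd2, inhibitors of Wnt signalling that Wnt itself induces, stood at 40.9, 24.6, 40.4 and 74.5 CPM and at 55.4, 38.2, 96.9 and 114 CPM in members, against 7.14 to 12.7 and 21.8 to 26.2 CPM in other gated cells. Axin2, the standard Wnt target, stood at 27.0, 18.2, 35.0 and 83.3 CPM against 12.5, 9.16, 19.2 and 17.0 CPM (log2 difference 1.18 ± 0.20, adjusted p = 0.0226). Of 21 dermal papilla and nail mesenchyme genes, 4 were higher, among them Rspo4, Corin and Prdm1, and none lower, with a median of 1.22. That median rested on few cells: with the members and other cells that carry Corin, Hhip or Kcnd2 left out (described further on), 2 of 18 tested genes were higher (Rspo4 and Prdm1), Fgf7 was lower and the median was -0.22, and without marked doublets, in a fit of 3 libraries since 13 members were left at 28 dpa, 2 of 20 were higher with a median of -0.12. The summed list was at 1482 and 774 CPM in unamputated and 12 dpa members against 1412 and 819 CPM in other gated cells. The papillary list kept the same 4 higher genes under both settings, with medians of 0.34 and 0.83. Rspo4, a Wnt co-activator needed for nails, stood at 9.56, 1.42, 26.9 and 87.7 CPM against 0.203 to 0.944 CPM, from 20, 9, 11 and 13 members. Prdm1 (Blimp1), a repressor found in papillary and dermal papilla cells, stood at 42.3, 28.9, 28.3 and 61.4 CPM against 2.86 to 12.4 CPM.

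With all members kept, the other lists held fewer changes. Of 24 matrix glycoproteins Mgp and Tnxb were lower and none higher; without marked doublets both were still lower and 6 were higher (Tnn, Postn, Tnc, Loxl2, Thbs2 and Fbn2), more than on the papillary list, and without the cells of Corin, Hhip or Kcnd2 none was higher. Of 20 genes of BMP signalling, 2 were higher, among them the secreted antagonist Grem1, which had no UMI in the 28 dpa members, where a count of 0 allows up to 13.2 CPM. Of 24 limb patterning factors, Twist2, Shox2 and Meis1 were higher; Twist2, a repressor of bone and muscle differentiation, stood at 116, 72.9, 128 and 83.3 CPM against 30.5 to 39.1 CPM. Without marked doublets En1 and Meis2 were higher as well, and without the cells of Corin, Hhip or Kcnd2 Meis1 was not called. Of 17 tested genes of retinoid handling, the list nearest to the role of Crabp1, Cyp26b1 passed the test, and Rdh10, a retinol dehydrogenase, was also called higher both without marked doublets and without the cells of Corin, Hhip or Kcnd2. Cyp26b1 degrades retinoic acid and stood at 75.8, 33.1, 145 and 215 CPM against 21.7 to 28.2 CPM (log2 difference 1.83 ± 0.34, adjusted p = 0.0339). Of 7 genes of the SPARC and testican family other than Spock3, and of the 12 contractile genes, none passed the test; their medians were -0.47 and 0.17, and of both lists Lrrc15 alone was called, as higher, without marked doublets. Serping1 and Htra4, of 15 serine proteases and serpins, were lower; neither was called without marked doublets, where Plat was higher. Cxcl5, a neutrophil attractant, was the single higher gene of 16 tested inflammatory genes, at 267, 245, 124 and 8.77 CPM against 55.8, 77.4, 15.1 and 4.19 CPM, while Ccl11 and Cxcl2 were lower. Of 11 tested genes of the reticular and adventitial list Ly6c1 was lower, against 6 lower genes without marked doublets and 7 without the cells of Corin, Hhip or Kcnd2. Of 21 collagens Col7a1 passed the test. Without marked doublets 6 collagens were higher (Col7a1, Col5a3, Col6a1, Col6a3, Col12a1 and Col18a1) and Col15a1 lower, and without the cells of Corin, Hhip or Kcnd2 Col5a3 was called beside Col7a1. Col1a1 stood at 27034, 24983, 20057 and 2582 CPM against 20864, 20713, 15715 and 8264 CPM.

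Against the C4b and Gdf10 fibroblasts, chosen in the same way by C4b, Gdf10 and Cyp2f2 (305, 41, 485 and 306 cells), 357 of 11566 genes were higher (3.09%) and 524 lower (4.53%) in members. Most tested cell cycle genes were higher and most immediate early and inflammatory genes lower. Myoc (myocilin, a matrix protein) was at 0.239, 0, 0 and 8.77 CPM in members against 26.8, 18.6, 69.6 and 95.7 CPM, and C3, the central complement protein, at 0.717, 7.39, 0 and 4.38 CPM against 119, 91.2, 99.2 and 371 CPM (log2 difference -5.20 ± 0.53, adjusted p = 0.000687). Ccl11 (eotaxin, -4.30) and Cxcl2 (-3.94) were also among the 5 lowest. Cadps (6.17), Col7a1 (5.62), Corin (4.80), Kcnd2 (4.69) and Clstn2 (3.61) were the 5 highest. Col7a1, at 26.3 to 517 CPM in members, was at 4.78 to 6.19 CPM in the C4b and Gdf10 cells of all 4 libraries.

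By list, 11 of 13 tested cell cycle genes were higher in members than in C4b and Gdf10 cells, Mki67 by 2.76 ± 0.28 and Birc5 by 3.26 ± 0.43 on the log2 scale, and none was lower; without marked doublets 7 of 12 were higher. None of these passed the test against other gated cells, where Mki67 stood at 51.6, 33.0, 43.1 and 57.0 CPM in members and 73.3, 44.5, 45.1 and 40.2 CPM in the rest. Contractile genes were higher for 5 of 11 (Acta2, smooth muscle actin, by 2.92, Tagln by 2.58, with Myl9, Cnn2 and Tpm1), although Acta2 stood at 35.1 CPM against 66.8 CPM at 28 dpa. The count was 11 of 12 without marked doublets, a fit that also lacks the 28 dpa library, and 7 of 11 without the cells of Corin, Hhip or Kcnd2. The matrix glycoproteins Tnc and Tnn (tenascins of wounds and growing tissue) and Fbn2 were higher, and Mgp, Eln, Tnxb and Fbln1 lower. Postn, Thbs1, Thbs2 and Loxl2 were also higher without marked doublets and thus without the 28 dpa library. Mgp, an inhibitor of calcification, stood at 354, 419, 615 and 465 CPM in members and at 2884, 3791, 3087 and 3365 CPM in C4b and Gdf10 cells. Of 16 immediate early and dissociation genes 14 were lower, with a median of -1.49, among them Fos (-1.95) and Zfp36 (-2.11); these genes respond to tissue digestion, and the part of handling was not tested. Of 14 inflammatory genes 8 were lower and Cxcl5 was higher. Without the 17 dpa library the counts fell to 123 higher and 195 lower, without the unamputated library to 184 and 234, and without the 12 dpa library to 204 and 328.

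Against the Pi16, Dpp4 and Pcolce2 fibroblasts (279, 178, 662 and 1204 cells), 479 of 12323 genes were higher (3.89%) and 621 lower (5.04%). All 11 tested genes of the reticular and adventitial list were lower in members, with a median of -2.79 against -0.01 over all genes. Efemp1, a fibulin of elastic tissue, was at 4.06, 5.83, 0 and 35.1 CPM in members against 86.8, 76.7, 74.0 and 93.4 CPM. Ly6c1 (-3.84), Clec3b (-3.62) and Cd34 (-3.20), a surface marker of adventitial cells, followed the same direction. Scara5, a ferritin receptor, stood at 24.1, 13.9, 4.04 and 39.5 CPM against 299, 271, 299 and 342 CPM. Wnt2, a secreted Wnt ligand, was at 4.54, 2.99, 1.35 and 0 CPM in members and at 49.1 to 59.3 CPM in the Pi16, Dpp4 and Pcolce2 cells.

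On the papillary list, 6 of 9 tested genes were higher in members than in Pi16, Dpp4 and Pcolce2 cells (Apcdd1, Nkd1, Nkd2, Rspo1, Col23a1 and Tnfrsf19), and Cyp1b1 and Ntn1 were lower; Rspo1 and Col23a1 were not called without the cells of Corin, Hhip or Kcnd2. Cyp26b1 was higher by 3.80 ± 0.23 (adjusted p = 0.000203, edgeR), the Wnt antagonists Wif1, Apcdd1, Sfrp2 and Dkk2 were higher and Sfrp4 was lower. Tnc was higher by 3.06 and Col12a1, a fibril-associated collagen, by 2.24. The 5 highest genes were Kcnd2 (8.36), Adgrb3 (an adhesion receptor of synapses, 6.78), Cadps (6.61), Kcnj3 (6.32) and Rbfox1 (a splicing factor of neurons and muscle, 5.87). Of these, Cadps was detected in 41, 46, 12 and 3 members and the other 4 in 2 to 33 members of each library. Of the 10 genes ranked highest and lowest in this contrast, 7 had a test result without marked doublets, and all 7 passed. Without the cells of Corin, Hhip or Kcnd2 the count was 7 as well. The counts were 204 and 256 without the 17 dpa library, 242 and 275 without the unamputated library and 283 and 294 without the 12 dpa library, and 732 genes were higher without the 28 dpa library.

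The members also differed among themselves by the leading gene. In the unamputated and 12 dpa libraries, the 2 with at least 20 cells of each kind, 39 of 10077 genes (0.387%) were higher and 35 (0.347%) lower in Crabp1-led than in Prss35-led members. Crabp1-led cells had more Fst (follistatin, an inhibitor of activin and BMP, 102 and 22.7 CPM against 19.5 and 6.45 CPM), Fgf7 (an epidermal growth factor made by mesenchyme, 134 and 35.0 CPM against 25.6 and 12.1 CPM) and S100a4 (a calcium-binding protein, 1281 and 1427 CPM against 409 and 278 CPM). Mmp13, a collagenase, and Ccl2, a monocyte attractant, were also higher, by 2.11 and 1.92 on the log2 scale. Prss35-led cells had more Krt17 (112 and 29.9 CPM against 12.8 and 5.03 CPM), Krtdap, Mt4, Mt2 and Ctla2a. Without marked doublets Fgf7 (log2 difference 0.49, adjusted p = 0.70, edgeR), Krtdap (-0.79, adjusted p = 0.624) and Mt4 (-0.60, adjusted p = 0.759) did not pass the test, while Fst, S100a4, Mmp13, Ccl2, Mt2 and Ctla2a did. Krt17 had no test result under that setting. Krt17, Krtdap and Mt4 are genes of keratinocytes, and the keratinocyte markers Krt5 and Krt10 stood at 111 and 143 CPM in unamputated Prss35-led members against 148 and 43.1 CPM in Crabp1-led ones; their part was not tested.

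Spock3-led members were also compared with Crabp1-led members, a contrast chosen after the negative correlation of these genes had been seen. In the same libraries 319 of 10489 genes (3.04%) were higher and 180 (1.72%) lower in Spock3-led cells. Apcdd1 was at 11.4 and 15.4 CPM in Spock3-led and at 215 and 70.7 CPM in Crabp1-led members (log2 difference -3.16 ± 0.30, adjusted p = 4.09e-08, edgeR). Itih5, which stabilises hyaluronan matrix, was at 16.4 and 17.6 CPM against 215 and 76.1 CPM, and Cyp26b1 at 9.81 and 14.3 CPM against 119 and 48.9 CPM. Entpd1 (-2.41) and Lyz2 (lysozyme, -2.41) were lower too; Lyz2 did not pass the test without marked doublets (-0.57, adjusted p = 0.349). Higher in Spock3-led cells were Col8a2 (a short-chain collagen, 71.9 and 101 CPM against 18.0 and 20.1 CPM), Cacnb2 (a calcium channel subunit, 114 and 78.4 CPM against 23.6 and 19.0 CPM), Dpp6, Pcdh9 and Slpi. Pcdh9 stood at 112.8 and 3.839 CPM against 15.91 and 3.355 CPM, so its difference rested on the unamputated library. Of 8 tested papillary genes 3 were lower (Apcdd1, Rspo1 and Nkd2) and none higher, and of 17 BMP genes 5 were lower, among them Bmp7, Grem1, Id1 and Id2, and Bmp5 was higher. Without marked doublets 3 of 16 BMP genes were lower, and among papillary genes Ntn1 was called in place of Rspo1; Fgf7 was then called higher in Spock3-led cells. Mgp, Ogn and Fmod, small matrix proteins, were higher, and no gene of that list of matrix glycoproteins was lower. Without marked doublets these were called higher again, while Tnn, Tnc and Loxl2 were called lower.

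Both contrasts by leading gene rest on 2 libraries. Without the library as a block, edgeR called 0 genes in either, while 206 and 175 genes had an unadjusted p under 0.05 in the first and 389 and 259 in the second (higher and lower). DESeq2 with the block called 9 higher and 10 lower genes in the first contrast and 66 and 23 in the second.

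**Figure D3:**
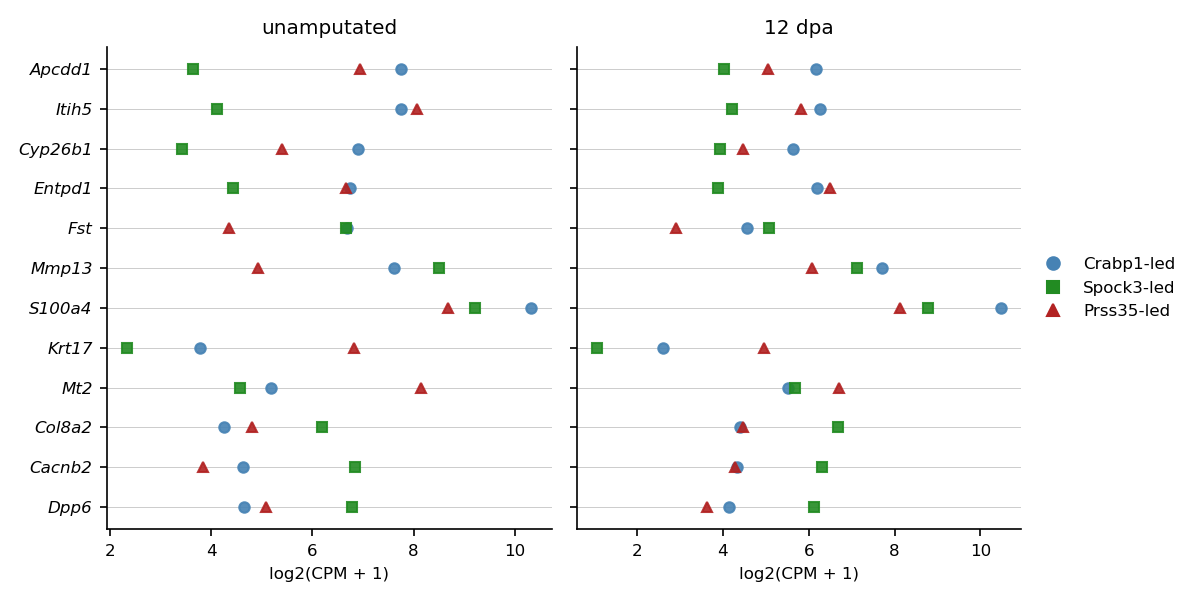
Levels of 12 genes, as log2(CPM + 1), in Crabp1-led, Spock3-led and Prss35-led members of the unamputated (left) and 12 dpa (right) libraries, each point a sum over the cells of 1 kind. Apcdd1, Itih5, Cyp26b1 and Entpd1 are lowest in Spock3-led cells and Krt17 and Mt2 are highest in Prss35-led cells in both libraries, with marked doublets kept.

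A few members carried a separate set of transcripts, most clearly outside the 12 dpa library. Members with 3 or more UMIs of Corin, Hhip (a hedgehog-binding antagonist) and Kcnd2 together, a threshold set after these genes had been seen, numbered 6, 4, 5 and 9, which is 3.51% (exact 95% interval 1.30 to 7.48), 1.03% (0.282 to 2.63), 10.2% (3.40 to 22.2) and 31.0% (15.3 to 50.8) of the members. Crabp1 was the leading gene in 5, 1, 4 and 7 of them. Their summed level of the dermal papilla and nail list was 20080, 4608, 17210 and 19022 CPM, against 1044, 741, 767 and 1546 CPM in the remaining members. Their Col1a1 was 789, 20283, 316 and 643 CPM against 27652, 25024, 21120 and 3553 CPM. Corin and Hhip, which chose these cells, belong to the dermal papilla list; without both, the list summed to 15615, 4378, 14627 and 14401 CPM against 1044, 740, 767 and 1526 CPM. Col1a1, which did not choose them, was low in these cells in 3 libraries and close to the remaining members in the 4 cells at 12 dpa. Rspo3, a Wnt co-activator of the dermal papilla, stood at 1485, 771, 2187 and 1864 CPM in them against 19.3, 13.3, 28.4 and 112 CPM. At 12 dpa a single member held 7 of the 8 Corin UMIs, a single member 7 of the 8 Hhip UMIs and a single member 47 of the 140 Rspo3 UMIs. The 12 dpa values of this set therefore rest on few UMIs and do not describe a group of cells.

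All 6 of these cells in unamputated tissue and all 9 at 28 dpa were marked by Scrublet, but none of the 4 and 5 at 12 and 17 dpa. Their median depth was 15028, 12996, 5798 and 8616 UMIs against 23944, 17263, 15558 and 5262 in the remaining members. Keratinocyte markers in them summed to 93.4, 164, 290 and 643 CPM against 485, 563, 136 and 1184 CPM in the remaining members. Schwann and perineurial markers summed to 228.4, 49.2, 184 and 78.8 CPM against 38.4, 11.6, 2.84 and 257 CPM, so they were higher in these cells in 3 libraries and lower at 28 dpa; their part was not tested. Among other gated cells 27, 4, 11 and 16 met the same count. All Corin UMIs of the members came from 5, 2, 4 and 8 cells, and all Hhip UMIs from 6, 2, 5 and 11. With such cells left out of the contrast with other gated cells, 126 genes were higher and 185 lower. Kcnd2 then had a log2 difference of 0.68 in place of 4.81 (adjusted p = 0.86), which follows from choosing the cells by it. Without marked doublets, and so without the 28 dpa library, Kcnd2 (2.75, adjusted p = 0.374, edgeR) and Corin (3.19, adjusted p = 0.252) missed the threshold in that contrast. Kcnd2 missed it against C4b and Gdf10 cells too (3.47, adjusted p = 0.211, edgeR). Kcnd2 and Corin had their highest member levels at 28 dpa (644 and 210 CPM), and the removed doublets and the lost library cannot be told apart here. Cadps (5.05), Col7a1 (3.15), Apcdd1 (2.53) and Entpd1 (3.44) remained past the threshold.

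**Figure D4:**
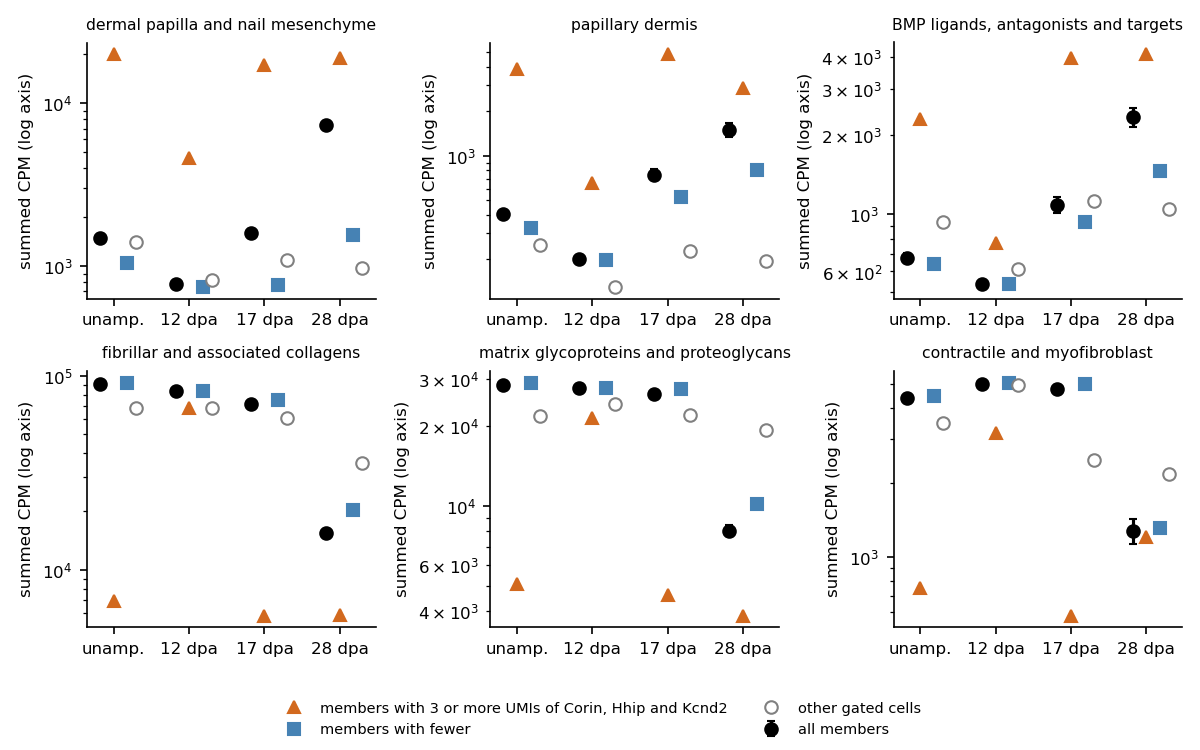
Summed CPM of 6 gene lists on log axes in all members (black, with exact 95% Poisson intervals), members with 3 or more UMIs of Corin, Hhip and Kcnd2 (triangles), the remaining members (squares) and other gated cells (open circles), by library. At 28 dpa the dermal papilla list is at 7381 CPM in all members, at 19022 CPM in the triangles and at 1546 CPM in the squares. Collagens in the squares are lowest at 28 dpa (20430 CPM). In the triangles they are at 5829 CPM at 28 dpa, near the 6894 and 5798 CPM of the unamputated and 17 dpa libraries.

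The abundant list genes given here did not pass the test against other gated cells with all members kept. Col1a2, Col3a1 and Col5a2 had log2 differences from other gated cells of -0.31, -0.16 and 0.06, none past the test. Postn, periostin of wound and periosteal matrix, stood at 8590, 8277, 6614 and 758 CPM in members against 3748, 4648, 2781 and 1229 CPM (log2 difference 0.61, adjusted p = 0.686, edgeR), so it was the higher of both in 3 libraries and the lower at 28 dpa; without marked doublets, and so without the 28 dpa library, it was called higher. Sparc, a matrix glycoprotein related to Spock3, stood at 9858, 12466, 9870 and 3598 CPM against 9067 to 11893 CPM. Prrx1, a factor of limb mesenchyme, stood at 833, 601, 633 and 657 CPM against 489 to 818 CPM, and Trps1, a factor of hair and bone growth, at 713, 398, 643 and 1819 CPM against 455 to 812 CPM. Crabp2, the relative of Crabp1, stood at 59.0, 54.3, 104 and 87.7 CPM against 84.7, 151, 95.8 and 177 CPM (log2 difference -0.78, adjusted p = 0.287, edgeR).

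Per cell, the 21 collagens took a median of 9.09%, 8.23%, 6.25% and 0.744% of a member's UMIs. The dermal papilla and nail list took 0.090%, 0.0602%, 0.0927% and 0.227%. At 28 dpa 75.0% of the Col1a1 UMIs came from 5 cells, against 8.77% in unamputated and 4.25% at 12 dpa.

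Counts of 2-fold genes at 12, 17 and 28 dpa come from sums of unequal depth and were not compared with each other. At 12 dpa, among 6969 genes with at least 20 CPM in either library, 39 were at least 2-fold higher (0.56%) and 207 lower (2.97%) on the log2(CPM + 1) scale, on which the median of all genes was -0.17. With totals scaled by TMM, which removes that shift, 91 genes were higher, and the share of higher among these changed genes went from 15.9% to 39.7%. Immediate early genes stood lower for 8 of 16, among them Fos (265 CPM against 790 CPM) and Fosb (32.1 against 122.8). So did 6 of 11 dermal papilla genes (Rspo3, Fgf7, Fgf10, Enpp2, Sostdc1 and Hhip) and 3 of 7 papillary genes (Apcdd1, Col23a1 and Tnfrsf19). Without the cells of Corin, Hhip or Kcnd2 only Sostdc1 of 8 measured dermal papilla genes stood lower, and Rspo3 was at 13.3 against 19.3 CPM; without marked doublets none of 8 did. Of the papillary genes Apcdd1 alone was 2-fold lower under either setting, while 8 and 5 immediate early genes were. Rbp4, a secreted carrier of retinol, stood higher, at 150 CPM against 70.0 CPM, but not past 2-fold without marked doublets. None of 18 collagens was 2-fold higher and Col15a1 alone was lower, and of 24 matrix glycoproteins none passed 2-fold.

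The genes furthest up at 12 dpa are known from keratinocytes and macrophages. Krtdap stood at 51.8 CPM against 11.5 CPM, Mt4 at 55.6 against 13.1, Ly6d at 53.9 against 13.6 and Krt10 at 218 against 59.3, the last from 215 of 387 members. Each of the 4 was lower at 12 dpa in other gated cells, where the log2 ratios were -0.89, -1.52, -1.38 and -0.89. Lyz2, a lysozyme of macrophages, stood at 75.5 against 24.6 CPM, a log2 ratio of 1.58 that became -0.28 when marked doublets were removed and -0.74 as a mean of CPM per cell. Keratinocyte markers in all cells of the libraries summed to 4928 and 3577 CPM, and their part in these ratios was not tested. The furthest down were Rorb (0.711 against 94.6 CPM), Gpc5 (0.995 against 98.0) and Hhip (1.14 against 86.0), which came from 16, 8 and 6 unamputated members. Without the cells of Corin, Hhip or Kcnd2 the log2 ratios of Rorb and Gpc5 went from -5.81 and -5.63 to -1.37 and -0.15; that of Hhip, which chose those cells, went from -5.35 to 0.19 by construction. Gm32647, a long noncoding RNA, stood at 6.40 against 50.7 CPM. Nr4a3, an immediate early receptor, stood at 8.96 against 54.0 CPM, with a ratio of -2.47 both with and without them.

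At 17 dpa 221 of 7186 genes were 2-fold higher (3.08%) and 413 lower (5.75%), in 49 members of which 40 were Crabp1-led. With the 3 kinds of members weighted equally in both libraries the counts were 886 and 953, from 2 Prss35-led and 5 Spock3-led cells at 17 dpa. BMP genes stood higher for 6 of 15 and lower for none: Id1, a direct BMP target, was at 159 CPM (exact 95% Poisson interval 131 to 190) against 24.9 CPM, in 23 of 49 members, with Id4, Bmp2, Bmp3, Bmp7 and Bambi. Of 8 papillary genes 3 were higher (Ntn1, Col23a1 and Rspo1), and of 15 dermal papilla genes 5, among them Rspo3, Rspo4, Lef1 and Fgf10. Rspo3 came to 92.2% from 5 members. Without the 5 cells of Corin, Hhip or Kcnd2 the dermal papilla list summed to 767 against 1044 CPM, in place of 1607 against 1482 CPM, and Rspo3 was at 28.4 against 19.3 CPM. The genes 2-fold higher were then 1 of 10 of that list (Rspo4), 1 of 7 papillary genes (Ntn1) and 2 of 11 BMP genes (Bmp3 and Id1). Without marked doublets they were 9 of 14, 2 of 8 and 4 of 12. Of 10 inflammatory genes 5 were lower (Ccl7, Ccl8, Cxcl1, Cxcl5 and Ptgs2), and of 16 immediate early genes 4, against 9 without marked doublets. No collagen of 18 passed 2-fold.

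Named by size, Stmn2, a microtubule protein of neurons, stood at 57.9 CPM against 4.78 CPM at 17 dpa, from 8 members. F13a1 stood at 82.1 against 8.36 CPM (11 members), Ntrk2 (the BDNF receptor) at 53.8 against 6.45 CPM (9 members), and the ribosomal pseudogene Rpl9-ps6, whose reads may be shared with its parent gene, at 52.5 against 8.60 CPM. With marked doublets removed the log2 ratio of F13a1 went from 3.15 to 1.40 and that of Ntrk2 from 2.88 to 1.48. Mmp13 stood at 22.9 against 210 CPM in members, while it was at 702 against 631 CPM in other gated cells. Ebf2 (8.08 against 73.4 CPM), Col25a1 (a membrane collagen of neurons, 16.2 against 129 CPM), Gm32647 (1.35 against 50.7 CPM) and Krt5 (14.8 against 102 CPM) were also low; without marked doublets Krt5 had a ratio of 0.18.

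At 28 dpa 1421 of 8076 genes were 2-fold higher (17.6%) and 815 lower (10.1%), in 29 members with 228155 UMIs. TMM scaling turned the balance, to 770 higher and 1307 lower, with a median of the same genes of 0.23 before and -0.12 after scaling. Directions of the genes named here were the same under both scalings. Matrix genes were low: 16 of 18 collagens and 15 of 24 matrix glycoproteins stood 2-fold lower, and 1 gene of both lists, Tnxb, stood higher. Col1a1 was at 2582 CPM against 27034 CPM, Col12a1 at 316 against 3012 CPM, and Postn at 758 against 8590 CPM. Summed collagens were 90361, 83341, 71638 and 15555 CPM over the 4 libraries in members, and 68037, 68127, 60573 and 35423 CPM in other gated cells. Of 11 contractile genes 9 were lower, among them Acta2 at 35.1 against 399 CPM, from 3 of 29 members. Fmod, Smoc2, Bmpr1b, Gas2 and Bmp5 had no UMI at 28 dpa and were at least 17.2-fold, 17.6-fold, 11.8-fold, 7.67-fold and 5.51-fold lower, against a floor of 3 UMIs in the library. Without the cells of Corin, Hhip or Kcnd2 the collagens summed to 20430 CPM and Col1a1 to 3553 CPM, and without marked doublets, in 13 members, to 17182 CPM and 2536 CPM; 15 and 14 of 18 collagens stood lower then and Col15a1 higher.

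Many dermal papilla, papillary and BMP genes stood higher at 28 dpa, and fewer did without the cells of Corin, Hhip or Kcnd2 or without marked doublets, which hold all 9 of those cells. Of 18 dermal papilla genes 15 stood 2-fold higher and Bmp5 lower: Hhip at 1346 against 86.0 CPM, Fgf7 at 903 against 109, Rspo3 at 697 against 53.1, Sostdc1 (a BMP and Wnt antagonist) at 780 against 27.5 and Lef1 (the Wnt effector) at 145 against 18.2 CPM. The list summed to 1482, 774, 1607 and 7381 CPM in members and to 1412, 819, 1091 and 975 CPM in other gated cells. Without the 9 cells of Corin, Hhip or Kcnd2 it summed to 1546 CPM at 28 dpa against 1044 CPM in unamputated members treated alike, with 7 of 12 measured genes higher, and without marked doublets to 1249 against 1024 CPM, with 4 of 11 higher. Sostdc1 and Lef1 were 2-fold higher under both settings and Rspo3 only without the 9 cells. Fgf7, and Hhip, which chose those cells, were not among the measured higher genes under either setting. Of 16 BMP genes 13 were higher (among them Id1, Id3, Bmp4, Fst and Nog) and Bmp5 and Chrdl1, with no UMI, lower, and the list summed to 679, 539, 1081 and 2341 CPM. Left with 20 members it summed to 1461 CPM against 640 CPM, with 9 of 14 genes higher and 2 lower, and left with the 13 unmarked members to 1326 against 631 CPM, with 6 of 12 higher and 3 lower. Bmp4 was then among the lower genes, and Fst and Nog were not among the measured higher genes under either setting. Of 8 papillary genes 6 were higher, with Col23a1 at 609 against 75.5 CPM. That list summed to 1486 against 406 CPM, to 803 against 325 CPM without the 9 cells (5 of 8 genes higher) and to 697 against 334 CPM without marked doublets, where 3 of 7 genes were higher and Col23a1 was lower. Wif1, a secreted Wnt inhibitor, stood at 1030 against 72.4 CPM and Serpine2, a serine protease inhibitor, at 2880 against 256 CPM. Wif1 stood higher under both settings too, whereas Serpine2 was not 2-fold higher without the 9 cells and was 2-fold lower without marked doublets.

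The 5 genes furthest up at 28 dpa each came from 3 to 12 members. Kcnip4, a potassium channel subunit, stood at 184 CPM against 1.43 CPM (42 UMIs in 7 members), Nrg2 (neuregulin-2) at 101 against 0.717 CPM (23 UMIs in 12 members) and Grm8 (a glutamate receptor) at 101 against 0.717 CPM (23 UMIs in 4 members). With 3 UMIs each in unamputated members, Nrg2 and Grm8 were each 140.6-fold higher, with a counting interval of 42.5 to 731.6. Kcnq3, a potassium channel with 22 UMIs in 3 members, and Adarb2, an RNA-editing family protein with 16 UMIs in 6, had none in unamputated members and were at least 134.5-fold and 97.8-fold higher against a floor of 3 UMIs. Kcnq3 had no UMI once the cells of Corin, Hhip or Kcnd2 were left out, whereas the log2 ratio of Adarb2 was 6.15 with and 6.44 without them. Among members of the 4 libraries, the marker sums of keratinocytes (1004 CPM), macrophages (232 CPM), Schwann and perineurial cells (197 CPM), pericytes and smooth muscle (74.5 CPM) and endothelial cells (30.7 CPM) were each highest at 28 dpa, and their part was not tested.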

How the data were processed

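The deposited files hold UMI counts per gene and barcode, made by the authors with Cell Ranger 7.1.0, per the file headers and the submitters' processing notes, on mm10; the annotation, the use of intronic reads and the calling of cells are not given in the sources used here. Of 32285 genes listed, 32235 matched GENCODE release 21 for positions. Cells were kept with at least 500 genes, 1000 UMIs and at most 10% mitochondrial UMIs. Doublets were marked with Scrublet (scanpy 1.11.5, Python 3.11.15) at 0.8% per 1000 barcodes.

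UMIs were summed per library and class where at least 20 cells were present. Classes were compared with edgeR 4.0.16 (R 4.3.3; TMM, filterByExpr, quasi-likelihood test, library as block, Benjamini-Hochberg adjustment), and with DESeq2 1.42.0 as an alternative; the scripts were tested on simulated data. An adjusted p under 0.05 was called. Conditions, with 1 library each, were compared by log2 ratios of CPM with a pseudocount of 1 CPM among genes of at least 20 CPM in either library, past 2-fold. Such ratios understate changes of low genes. A count of 0 was bounded at 3 UMIs per library. Depth intervals are exact 95% intervals and cover counting error only; libraries are not replicates of a condition.

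Genes were named by rank of log2 difference: 12 up and 8 down against other gated cells, and 5 each way in the other contrasts, with at least 50 CPM in the higher class, called and in 1 direction in every library tested; between conditions, the 5 highest and lowest ratios at 50 CPM or more. The 4 most abundant genes of each list could be named, and genes behind a count over a list were named after their values were seen. Some genes that this rule or the lists hold are not reported here. The members and the 15 gene lists were chosen with earlier results of these data known. Alternatives changed the filters, the rule's threshold, doublets, depth, denominators, scaling, the library block, libraries and the makeup of the members.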

Additional observations from a re-analysis of the deposited data

Results flagged for a closer look

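Mt4 and Ly6d, both known from keratinocytes, moved in opposite directions in members and in other gated cells between the unamputated and 12 dpa libraries. The log2 ratio of Mt4 was 2.001 in members and -1.52 in other gated cells, from 46 of 387 members at 12 dpa and 24 of 171 unamputated members. That of Ly6d was 1.91 in members and -1.38 in other gated cells, from 42 and 34 members. With 1 library per condition the difference between both kinds of cells was not tested.

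Xist, the transcript of the inactive X chromosome, was read outside the comparisons and stood at 478 CPM in the 12 dpa members (3363 UMIs), while members of the other 3 libraries had 0 UMIs. The floors that a count of 0 allows there are 0.717, 4.04 and 13.2 CPM. The 4 Y-linked genes had 1 UMI in the 12 dpa members and 1271, 150 and 57 UMIs in the unamputated, 17 and 28 dpa members. The labels name pooled sexes for these libraries, so in the comparison of 12 dpa with unamputated members the sex of the cells and the condition cannot be told apart.

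No group held 4 or more samples, so no library was tested for standing apart from its group.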

How the results depend on the processing

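No paired analysis was possible because the groups compared share fewer than 2 replicate numbers, with 1 library each; the library as a block is the main fit. The member share of 7.22%, 17.4%, 1.67% and 0.699% kept its order (12 dpa highest, 28 dpa lowest) at 2.47%, 6.59%, 1.04% and 0.312% after thinning to 3000 UMIs and at 1.43%, 5.58%, 0.564% and 0.248% of all passing cells; a rule sum of at least 5 gave 14.6% at 12 dpa and 0.458% at 28 dpa, and removal of doublets 0.363% at 28 dpa. The values that follow are percentages of the genes tested. Against other gated cells (0.630% higher, 0.711% lower of 14910), DESeq2 called 1.5% and 1.48% of 14330, no filter on low counts 0.565% and 0.846% of 25650, no library block 0.215% and 0.0604%, doublets removed 1.17% and 1.41%, thinned cells 1.36% and 1.52%, and leaving out the cells of Corin, Hhip or Kcnd2, chosen after the data were seen, 1.25% lower; leaving out 1 library gave 0.141% to 1.43% and 0.134% to 1.69%. Against C4b and Gdf10 fibroblasts (3.09%, 4.53% of 11566), no filter gave 3.31% and 3.87% of 21883, thinning 4.98% lower of 4699, and leaving out 1 library 1.05% to 4.36% and 1.66% to 5.22%. Against Pi16, Dpp4 and Pcolce2 fibroblasts (3.89%, 5.04% of 12323), no filter gave 4.03% and 4.53% of 22620, doublets removed 6.66% higher, thinning 6.18% and 6.40% of 4890, and leaving out 1 library 1.64% to 5.90% and 2.06% to 6.39%. Crabp1-led against Prss35-led members (0.387%, 0.347% of 10077) gave 0.0968% and 0.108% of 9296 with DESeq2, 0.796% and 0.412% of 18712 with no filter and 0% and 0% without the block; Spock3-led against Crabp1-led members (3.04%, 1.72% of 10489) gave 1.58% and 0.549% of 4186 with DESeq2 and 0% and 0% without the block.

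Of genes 2-fold apart at 12 dpa (0.560% higher, 2.97% lower of 6969), a pseudocount of 5 CPM gave 0.359% higher, a floor of 50 CPM 0.544% and 3.003% of 3863, a floor of 5 CPM 0.948% and 4.04% of 10863, TMM scaling 1.26% higher and a rule sum of at least 5 0.951% higher. At 17 dpa (3.08%, 5.75% of 7186), the pseudocount gave 1.98% higher, the floors 2.65% and 5.30% of 4001 and 4.75% and 8.63% of 11116, and equal weights for the 3 kinds 11.8% and 12.7%. At 28 dpa (17.6%, 10.1% of 8076), the floors gave 13.6% and 10.6% of 4583 and 20.6% and 12.6% of 11629, TMM 10.0% and 17.0%, and doublets removed 16.6% lower. Among genes named by size, log2 ratios changed sign for Lyz2 at 12 dpa (1.58 to -0.74 as a mean per cell and -0.28 without doublets), Hhip at 12 dpa (-5.35 to 1.15 without doublets and 0.19 without the cells of Corin, Hhip or Kcnd2, the latter by construction), and Krt5 at 17 dpa (0.18 without doublets); Kcnq3 at 28 dpa went to 0 under the last 2 settings. Of the list genes given by name at 28 dpa, Bmp4, Col23a1 and Serpine2 went from 2-fold higher to 2-fold lower without doublets. Apart from the 7 values of genes named by size, 574 of such genes' values stayed the same, 48 moved and 70 missed the threshold; the cause was not tested. Fewer than 20 members were left at 28 dpa without doublets (13), at a rule sum of at least 5 (19) and after thinning (11), so those class contrasts used fewer libraries, and leaving out a library was not possible for the contrasts by leading gene. The 28 dpa values rest on 228155 UMIs of 29 members.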
